A study of Rattus norvegicus with 59 samples.

Results

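Slc2a4, Slc2a1 and Hk2 are genes of the first steps of glucose use in heart muscle. They were taken from the deposited tables by their identifiers: ENSRNOG00000017226 for Slc2a4, ENSRNOG00000007284 for Slc2a1 and ENSRNOG00000006116 for Hk2. The names were given together with these identifiers, since the files themselves carry identifiers only. All 3 were present among the 22938 genes of the count tables, and all 3 were listed in the authors' table of PCM1 fractions.

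Glucose enters a cardiomyocyte through membrane carriers of the GLUT family and is then phosphorylated by a hexokinase, which keeps it in the cell. Slc2a4 encodes GLUT4, the carrier of muscle and fat that insulin and contraction move from stores inside the cell to the surface. Slc2a1 encodes GLUT1, the carrier of basal uptake, which is prominent in the fetal heart and in many other cell types. Hk2 encodes hexokinase 2, the main hexokinase of adult heart and skeletal muscle, which can bind to mitochondria. Carriers and hexokinases are often studied in the enlarged heart, because fuel use shifts with cardiac growth.

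The data were raw read counts of nuclear RNA from male Sprague Dawley rats. Nuclei came from the left ventricle and were sorted for PCM1, a centriolar satellite protein that marks cardiomyocyte nuclei. Rats of about 170 g entered the surgery experiment and had a suture tightened around the ascending aorta (banded, 6 weeks), or had the same operation without tightening (sham). Banded rats were kept in the study only when the heart was enlarged and not failing, which restricts this group to compensated hearts. Rats of about 280 g entered the exercise experiment and ran on an inclined treadmill for 6 weeks (trained) or were not assigned to running (control). Ages were not given. Each of these 4 groups had 4 count libraries, 16 of the 59 samples of the series. Whether replicates came from different animals is not spelled out in the labels, so the tests weigh a difference against the variation among libraries, some of which may be technical.

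Total counts ran from 1.82 to 14.4 M per library. Sham replicates 2 and 3 were nearly as alike as counting error allows, much more so than other replicates, and were counted as 1 sample. For genes with 21 to 750 counts in the pair, their squared difference was on average 1.07 times what counting error gives, against 2.70 to 28.2 times in the other 23 within-group pairs. A further check of the libraries used the 1319 genes that exceed 8-fold enrichment in PCM1-negative nuclei in the authors' deposited table, which stand here for other cell types. They made up 4.32% of the counts in sham replicate 1 and 4.45% in banded replicate 1, and 0.536% to 1.68% in the other 14 libraries.

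Stretches upstream of Slc2a1 and Hk2 are shown because these 2 of the 3 members were in the promoter set used. Each is the 250 bases before the gene's annotated start, from RefSeq on build GRCr8, written 5′ to 3′ on the gene's strand. Slc2a1 lies at chr5:138002272-138002521 on the plus strand and Hk2 at chr4:116841276-116841525 on the minus strand. Capitals mark ACGTG, a form of the core of the hypoxia response element, and GGGCGG, the GC box, on either strand. Other forms of that core were not searched.
Slc2a1: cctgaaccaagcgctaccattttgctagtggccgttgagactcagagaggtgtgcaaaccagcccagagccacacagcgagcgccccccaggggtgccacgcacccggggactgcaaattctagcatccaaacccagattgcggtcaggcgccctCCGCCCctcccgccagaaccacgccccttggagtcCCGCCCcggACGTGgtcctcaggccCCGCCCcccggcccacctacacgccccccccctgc
Hk2: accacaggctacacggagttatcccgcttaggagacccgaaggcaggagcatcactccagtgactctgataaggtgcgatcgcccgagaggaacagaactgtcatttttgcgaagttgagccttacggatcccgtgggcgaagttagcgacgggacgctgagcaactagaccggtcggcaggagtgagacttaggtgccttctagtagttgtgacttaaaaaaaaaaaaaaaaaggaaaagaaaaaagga

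The Slc2a1 stretch held 3 GC boxes, beginning 95, 60 and 35 bases before the start, and 1 ACGTG, beginning 51 bases before it. These motifs did not overlap. The Hk2 stretch held 0 matches to either motif. Of 33469 rat promoters of the same length, 30.5% held GGGCGG and 16.6% held ACGTG. Neither stretch held CANNTG or CCAAT, which were present in 65.5% and 34.0% of all promoters. G and C made up 68.4% of the Slc2a1 stretch and 49.6% of the Hk2 stretch, with a median of 51.2% over all promoters. These matches describe the letters only. Slc2a4 has no sequence shown here.

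All 3 genes were higher in cardiomyocyte nuclei than in the other nuclei of the ventricle. In the authors' deposited table, Slc2a4 was 9.57-fold higher in PCM1-positive than in PCM1-negative nuclei (log2 fold change 3.26, false discovery rate 1.22e-12). Hk2 was 4.27-fold higher in the authors' deposited table (2.09, 5.26e-11). Slc2a1 was 4.01-fold higher (2.00, 3.83e-09), again from the authors' deposited table. Since 51.6% of the 12848 genes of that table had a rate under 0.05, and 24.0% were called as higher in PCM1-positive nuclei, 3 calls among 3 genes are little by themselves, and the size of the folds says more. Only 3.87% of all genes in the table had a larger PCM1-positive enrichment than Slc2a4, 9.20% than Hk2 and 9.76% than Slc2a1. The enrichment of Slc2a1 was the smallest of the 3, close to that of Hk2. GLUT1 is also a carrier of endothelial and other cells, and whether this bears on its fold was not tested. The table gives no value per library, so these folds carry no error here. The labels place control replicate 1 and control replicate 5 behind it. In control replicate 1, Slc2a1 was at 22.4 CPM (counts scaled by the library total), against 45.4 to 48.6 CPM in control replicates 2 to 4. Hk2 was also lowest in control replicate 1, at 140 CPM against 157 to 201 CPM. Whether these low values bear on the folds, or on the order of Slc2a1 and Hk2, was not tested.

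**Figure D1:**
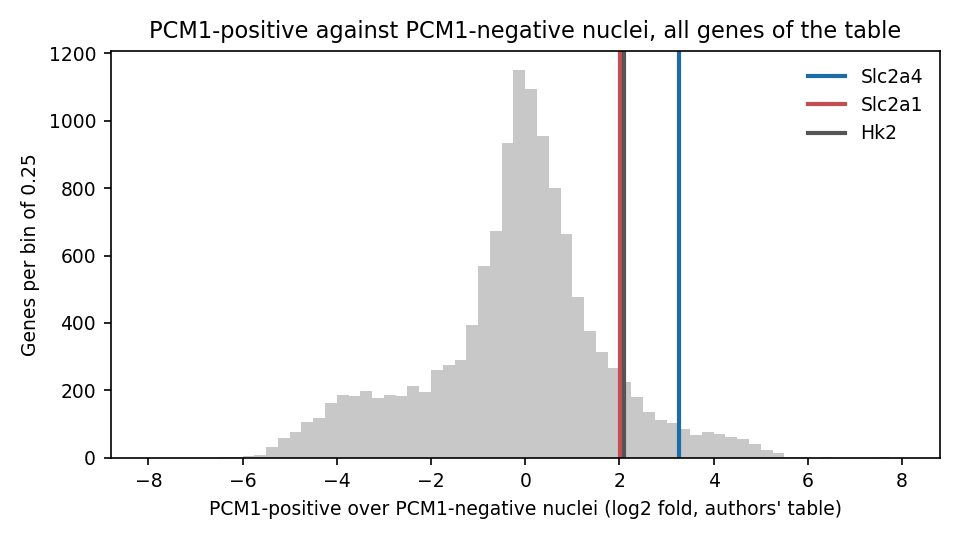
Histogram of log2 fold changes between PCM1-positive and PCM1-negative nuclei for the 12848 genes of the authors' deposited table (x axis, deposited sign turned, so that positive is higher in PCM1-positive nuclei, and y axis, genes per bin). Vertical lines mark Slc2a4 at 3.26, Hk2 at 2.09 and Slc2a1 at 2.00, all on the right flank of the distribution.

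The direction of that table is not named in its header. It was read from control replicate 1: over the 12848 genes, this PCM1-positive library lay above the table's mean level where the deposited fold change was negative (slope -0.46). The deposited sign was therefore turned, and the fold changes above are PCM1-positive over PCM1-negative. The higher level of the 3 genes in cardiomyocyte nuclei and the choice of the 1319 genes rest on this turn.

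Within the sorted nuclei, Slc2a4 and Hk2 were abundant and Slc2a1 was of moderate abundance. CPM values are counts divided by the library total and scaled up, with no correction for gene length. For the mean log2 CPM given next, edgeR also adjusted the library totals by its TMM factors. Slc2a4 stood at 7.88 (percentile 93.8 among 12650 genes tested), Hk2 at 7.27 (percentile 90.4) and Slc2a1 at 5.53 (percentile 71.2). The variation between samples of a group, as edgeR's biological coefficient of variation, was 16.2% for Slc2a4, 19.4% for Hk2 and 22.0% for Slc2a1. Among the 500 genes of the most similar level, Slc2a4 was at percentile 47.8 of this variation, Hk2 at 73.0 and Slc2a1 at 77.6. In bulk nuclei, fewer cells of a type and less RNA per cell cannot be told apart.

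Slc2a4, the insulin-responsive carrier, showed the clearest pattern across the 4 groups. In sham rats it was at 154 CPM in replicate 1, 200 in replicate 2, 208 in replicate 3 and 144 in replicate 4. Banded rats had 175, 184, 230 and 185 CPM in replicates 1 to 4. Both surgery groups were thus low and overlapped. In control rats the values were 311, 284, 312 and 293 CPM, and in trained rats 240, 262, 221 and 295 CPM. Control libraries lay within a narrow band, and trained libraries reached from the level of the highest banded library up to that of the controls.

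In group means, Slc2a4 was at 168 ± 33.5 CPM in sham (SD, n = 3), 194 ± 24.9 in banded (n = 4), 254 ± 32.1 in trained (n = 4) and 300.0 ± 13.7 in control rats (n = 4). Ranges of neighbours overlapped at each step of this order. The ends of the order, sham and control, did not overlap, which was also true of 13.3% of the 12650 genes tested. Behind these values stood 518 to 2645 counts per library. At the lowest count, in control replicate 2, the exact Poisson 95% interval was 260 to 310 CPM, wider than the range of the control group, and at the highest, in banded replicate 2, it was 177 to 191 CPM.

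**Figure D2:**
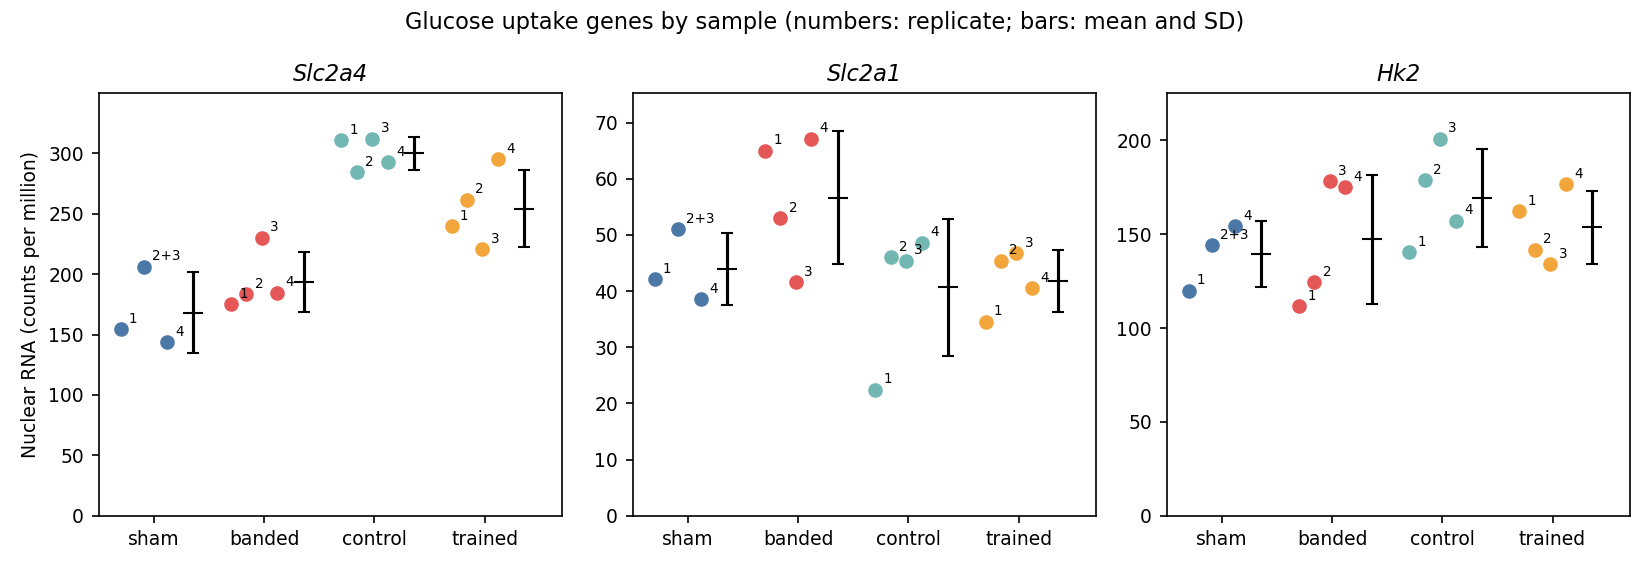
CPM (y axis, linear, from 0) of Slc2a4, Slc2a1 and Hk2 in each sample of the 4 groups (x axis). Points are samples numbered by replicate, with sham replicates 2 and 3 as 1 sample, and black bars give mean and SD. Slc2a4 separates sham (144 to 206 CPM) from control (284 to 312 CPM), Slc2a1 has 1 low control sample at 22.4 CPM, and Hk2 overlaps in all groups.

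Of the 3 genes, Slc2a4 alone passed a test between the rat groups, and it did so between the baselines of both experiments. It was 0.536-fold in sham relative to control rats (95% interval 0.419 to 0.685, log2 difference -0.90, SE 0.17, edgeR quasi-likelihood adjusted p = 0.0189). Of the 12650 genes tested, 0.941% passed in this comparison and 0.601% passed as lower in sham, and Slc2a4 ranked 45th by p. Surgery, start weight, experiment and count table all differ between these groups and cannot be told apart. The direction held in each alternative run, but the call was lost without sham replicate 1 (edgeR adjusted p = 0.0849), sham replicate 4 (0.111), control replicate 1 (0.0520) or control replicate 3 (0.0528), and without a filter on low counts (0.0555).

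The share of PCM1-negative-enriched counts was higher in sham replicates 1 (4.32%) and 4 (1.58%) than in the control libraries (0.536% to 0.956%). Control replicate 1 is among the libraries behind the choice of these genes, so its share is not independent of that choice. Sham replicates 2 (0.685%) and 3 (0.658%) lay within the control range. Within the sham group, Slc2a4 was at 206 CPM in replicates 2 and 3 together (share 0.666%), 154 CPM in replicate 1 (4.32%) and 144 CPM in replicate 4 (1.58%). The control libraries were at 284 to 312 CPM. Over the 7 surgery samples the share and Slc2a4, both on the log2 scale, had r = -0.505 and rho = -0.536 (exact permutation p = 0.253 and 0.236, two-sided, adjusted p = 0.750 and 0.793), and r was -0.384 without the 2 samples farthest from the median share. Over the 8 exercise samples the signs were the other way, with r = 0.189 and rho = 0.095 (exact permutation p = 0.642 and 0.840, adjusted p = 0.750 and 0.917). There r was 0.445 without the 2 samples farthest from the median share. Without sham replicate 1, the sham library with the highest share, the log2 difference of sham to control was -0.79 and did not pass (edgeR adjusted p = 0.0849). With banded replicate 1 left out as well, it was -0.80 and passed (edgeR adjusted p = 0.0431). The part of the share in the difference was not tested.

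Banding was compared with sham to follow pressure overload. Slc2a4 was 1.14-fold in banded relative to sham rats (95% interval 0.816 to 1.60, edgeR adjusted p = 1.00), a difference within the spread of the samples. Its interval leaves room for a rise and for a modest fall. In this comparison 0.00788% of 12689 genes passed, and 0 of the 3 genes did. The groups did not overlap in 3.20% of genes, and in 0 of the 3. In the authors' deposited table Slc2a4 was at 7.47 log2 RPM (reads scaled to library size by the authors) in sham and 7.53 in banded rats, with a false discovery rate of 0.387. That table has 2.63% of 22938 genes with a rate under 0.05.

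Treadmill training against no training addressed physiological growth. Slc2a4 was 0.867-fold in trained relative to control rats (95% interval 0.729 to 1.03, log2 difference -0.21, SE 0.11, edgeR adjusted p = 0.781). In this comparison 0% of 10815 genes passed in edgeR, with 761 genes at an unadjusted p under 0.05 and 37 called by DESeq2, and 0 of the 3 genes were called. The groups did not overlap in 4.15% of genes, and in 0 of the 3. The trained libraries had the lower mean, with trained replicate 4 inside the control range. In the authors' deposited table the values were 8.24 log2 RPM in control and 7.97 in trained rats, with a false discovery rate of 1. That table has 1.27% of genes with a rate under 0.05.

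The responses of Slc2a4 to banding and to training had opposite signs, and their difference did not pass the test. The banding effect minus the training effect was 0.39 on the log2 scale (95% interval -0.087 to 0.86, edgeR adjusted p = 1.00). In this comparison 0.00791% of 12650 genes passed, and 0 of the 3 genes did.

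Slc2a1, the carrier of basal uptake, had its highest group mean in banded rats. Sham rats had 42.1, 48.1, 52.1 and 38.6 CPM in replicates 1 to 4. Banded rats had 65.0, 52.9, 41.6 and 67.1 CPM. Banded replicates 1 and 4 lay above all sham libraries. Banded replicate 2 lay just above sham replicate 3, and their exact Poisson 95% intervals overlapped (49.2 to 56.8 and 47.2 to 57.3 CPM). Banded replicate 3, the shallowest library of the surgery experiment with 107 Slc2a1 counts, lay within the sham range. Control rats had 22.4, 46.1, 45.4 and 48.6 CPM, and trained rats 34.5, 45.4, 46.7 and 40.5 CPM. Control replicate 1 stood below every other of the 16 libraries.

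The order of the Slc2a1 means was control (40.6 ± 12.2 CPM, SD, n = 4), trained (41.8 ± 5.53, n = 4), sham (43.9 ± 6.39, n = 3) and banded (56.7 ± 11.9, n = 4). Every group's range overlapped that of its neighbours in this order. Slc2a1 was 1.28-fold in banded relative to sham rats (95% interval 0.930 to 1.76, log2 difference 0.36, SE 0.20, edgeR adjusted p = 1.00). It was 1.07-fold in trained relative to control (0.770 to 1.49, adjusted p = 0.961) and 1.04-fold in sham relative to control (0.739 to 1.47, adjusted p = 0.937), both in edgeR. The banding effect minus the training effect was 0.26 (95% interval -0.42 to 0.94, edgeR adjusted p = 1.00).

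Control replicate 1 set the sign of the small Slc2a1 differences in the exercise experiment. Without it the control mean was 46.7 ± 1.69 CPM (SD, n = 3), the log2 difference of trained to control turned from 0.097 to -0.13, and that of sham to control from 0.060 to -0.18, in edgeR. The difference of sham to control also turned, to -0.12, without sham replicates 2 and 3. For Slc2a1 the authors' deposited tables gave 5.52 log2 RPM in control and 5.42 in trained rats, and 5.49 in sham and 5.88 in banded rats, each comparison with a false discovery rate of 1.

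In control replicate 1 the 175 Slc2a1 counts gave 22.4 CPM with an exact Poisson 95% interval of 19.2 to 26.0, which covers counting error only and lies below the interval of each other control library. In the same library Slc2a4 was at 311 CPM, among the highest of all samples, and Hk2 at 140 CPM, the lowest of the controls. This library is also among those behind the authors' deposited table of PCM1 fractions.

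Hk2, the hexokinase that traps the glucose taken up, overlapped between all groups. Sham rats had 120, 147, 142 and 154 CPM in replicates 1 to 4. Banded rats had 112, 124, 178 and 175 CPM. The banded libraries fell apart into replicates 1 and 2, near or below the lowest sham value, and replicates 3 and 4, above the highest. Control rats had 140, 179, 201 and 157 CPM, and trained rats 162, 142, 134 and 177 CPM. No group stood apart from the others.

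From low to high, the Hk2 means were those of sham (139 ± 17.6 CPM, SD, n = 3), banded (147 ± 34.3, n = 4), trained (154 ± 19.4, n = 4) and control rats (169 ± 26.3, n = 4). This is the order of the Slc2a4 means as well, and neighbours overlapped at every step. Hk2 was 1.05-fold in banded relative to sham rats (95% interval 0.704 to 1.56, edgeR adjusted p = 1.00) and 0.929-fold in trained relative to control (0.753 to 1.15, adjusted p = 0.911). It was 0.788-fold in sham relative to control (0.585 to 1.06, log2 difference -0.34, SE 0.20, edgeR adjusted p = 0.413). The banding effect minus the training effect was 0.17 (95% interval -0.42 to 0.75, edgeR adjusted p = 1.00). Leaving out sham replicate 1, banded replicate 3 or banded replicate 4 turned the sign of the banding difference (-0.091, -0.043 and -0.033), and leaving out control replicate 3 that of the training difference (0.0065).

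For Hk2 the authors' deposited tables gave 7.18 log2 RPM in sham and 7.23 in banded rats, and 7.39 in control and 7.25 in trained rats, each comparison with a false discovery rate of 1.

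**Figure D3:**
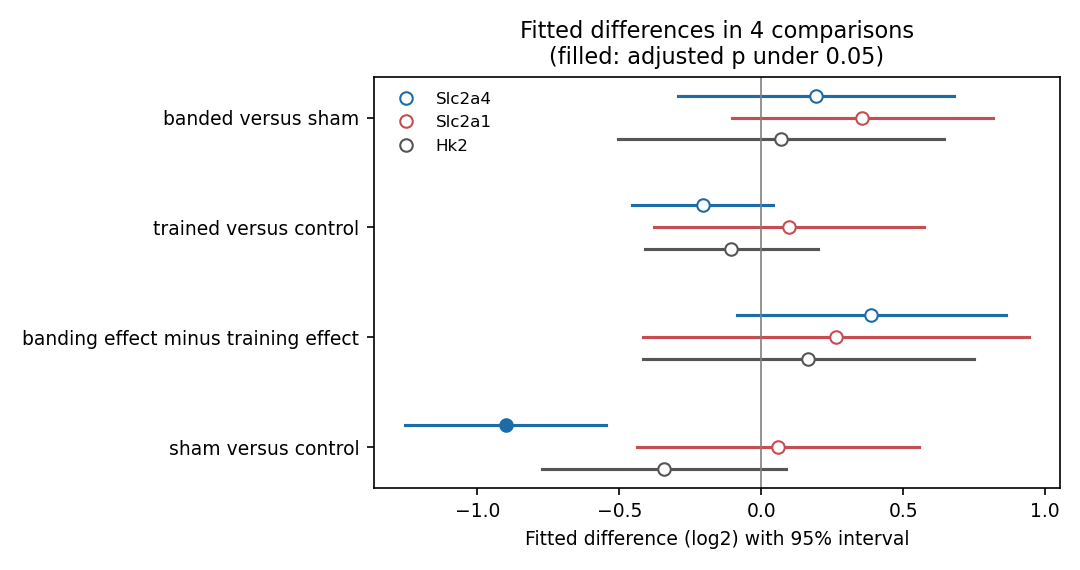
Fitted log2 differences (x axis) with 95% intervals for Slc2a4, Slc2a1 and Hk2 in 4 comparisons (y axis), from edgeR fits of all genes. The filled point marks adjusted p under 0.05: Slc2a4 in sham versus control at -0.90, while the other 11 intervals include 0.

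The balance of both carriers was then read within each library as Slc2a4 counts per Slc2a1 count, a value that does not depend on library size. It is compared between samples only, since counts of different genes also depend on gene length. Sham samples had 3.67 in replicate 1, 4.05 in replicates 2 and 3 together and 3.73 in replicate 4, the narrowest group. Banded samples had 2.70, 3.47, 5.54 and 2.75, and trained samples 6.94, 5.76, 4.72 and 7.29. Control samples had 13.9, 6.17, 6.87 and 6.02. The means were 3.81 ± 0.204 in sham (SD, n = 3), 3.62 ± 1.33 in banded, 6.18 ± 1.17 in trained and 8.23 ± 3.77 in control rats (n = 4 each), and the control mean was 6.35 ± 0.455 without replicate 1 (n = 3). Sham and control did not overlap, whereas banded overlapped with sham and trained with control. Banded and trained overlapped too, with banded replicate 3 (5.54) inside the trained range. Slc2a4 CPM alone also separated sham from control, as did 13.3% of genes tested, and the share of other gene ratios that do so was not computed. The ratio was formed from genes whose values were already known and is given as a description.

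**Figure D4:**
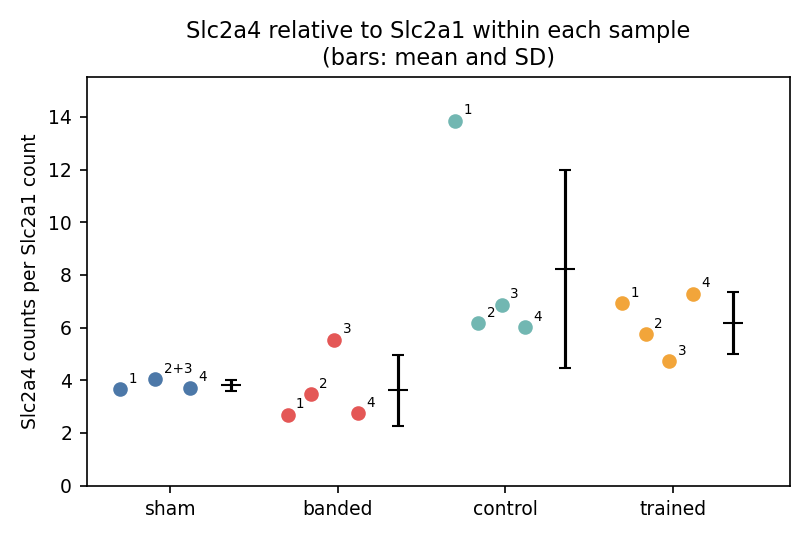
Slc2a4 counts per Slc2a1 count (y axis, linear, from 0) in each sample of the 4 groups (x axis), points numbered by replicate, black bars for mean and SD. Sham samples lie between 3.67 and 4.05, control samples between 6.02 and 13.9, and control replicate 1 stands alone at the top.

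The 3 genes did not vary together in a way that passed a test. Within each experiment, log2 CPM of the 3 gene pairs and of each gene with the PCM1-negative-enriched share were correlated, 12 relations in all. Slc2a4 and Hk2 had the highest positive values among the gene pairs, with Pearson r = 0.415 and Spearman rho = 0.536 over the 7 surgery samples (exact permutation p = 0.352 and 0.236, two-sided, adjusted p = 0.750 and 0.793). Over the 8 exercise samples r was 0.531 and rho 0.476 (exact permutation p = 0.178 and 0.243, adjusted p = 0.750 and 0.793). Without the 2 samples farthest from the Slc2a4 median, r was 0.497 and 0.390. In all 12 relations the adjusted exact permutation p was 0.750 or higher for r and 0.793 or higher for rho. For these 12 relations no r over both experiments was computed.

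The genes with the most similar pattern over all 15 samples were looked up among 12649 others. For Slc2a4 these were ENSRNOG00000026323 (Pearson r of log2 CPM 0.93) and ENSRNOG00000029333 (0.93). After the group means were taken off, r was 0.58 for ENSRNOG00000026323 and 0.82 for ENSRNOG00000029333, so part of the likeness of the former lay in the group levels. For Slc2a1 they were ENSRNOG00000010496 (0.82, and 0.79 after centring) and ENSRNOG00000018765 (0.82 and 0.85). For Hk2 they were ENSRNOG00000020014 (0.88 and 0.87) and ENSRNOG00000017017 (0.88 and 0.84). These values are the highest of many, all genes share the libraries and their depth, and they are given as a description over 15 samples.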

How the data were processed

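Nuclear RNA of PCM1-positive left ventricle nuclei was analysed from raw read counts per gene, deposited by the authors as whole numbers. No stored count was below 1 in any library. The exercise table has 2 unnamed rows that hold its column totals (0% difference), and these were left out. The authors also deposited log2 RPM values as 1 column per group, false discovery rates (p-values adjusted for many tests), and log2 fold changes between PCM1 fractions. Bowtie, SAMtools, edgeR and R 2.15.1 are listed, without roles, in the submitters' processing notes. The build, counting rule, use of strand, pooling and test were not given in the sources used here.

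CPM values are counts scaled by the library total. Counts were tested over all genes with edgeR 4.0.16 in R 4.3.3 (quasi-likelihood test, TMM factors of 0.947 to 1.14, filterByExpr with minimum count 10 and minimum total 15, Benjamini-Hochberg adjustment, threshold 0.05). SEs and 95% intervals came from the F statistic. Surgery and exercise libraries were fitted separately. The difference of effects and sham versus control came from 1 fit of all 4 groups. Sham replicates 2 and 3 were summed, less 1. Alternatives used DESeq2 1.42.0, its size factors, no filter, 1 subtracted, the pair kept apart, a replicate block and each sample left out. On simulated counts, the fit recovered 26.0% of 2-fold and 87.0% of 4-fold changes for banded versus sham (12600 genes), and 84.0% and 100% for trained versus control (10780 genes), 46.0% and 92.0% for sham versus control (12601 genes), and 19.0% and 82.0% for the difference of effects (12593 genes). Correlations and sequences were handled in Python 3.11.15 with numpy 2.4.6 and pandas 2.3.3, and figures with matplotlib 3.10.9.

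The members and lists were chosen with earlier results of these data known. The genes named in the text are the 3 members and, for each, the 2 other identifiers with the highest Pearson r. Lists of other glucose pathway genes and of cell type markers were written as gene names. The RefSeq table used (47357 genes, GRCr8) carries 0 Ensembl identifiers, so these lists were not counted, and the labelled cell type was checked only through the PCM1 table. All 3 members were found in it by symbol, and 2 of them in the promoter table. Histone mark bins were not used here, because genes were not placed on them.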

Additional observations from a re-analysis of the deposited data

Results flagged for a closer look

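Slc2a1 in control replicate 1 was at 22.4 CPM, while the other 3 control libraries lay between 45.4 and 48.6 CPM. The gap was 0.877 of the group's range, above Dixon's 95% critical value for 4 samples. The Slc2a4 to Slc2a1 count ratio of the same library, 13.9 against 6.02 to 6.87 in the other controls, was set apart in the same way (0.891 of the range), and it shares the Slc2a1 count. Of 18 sets of group values examined these 2 stood apart, and chance sets apart about 1 in 20 such groups. Sham, with 3 samples, was not examined, and the 18 are not independent, because the ratios reuse the counts behind the CPM values. Control replicate 1 is also among the libraries behind the choice of the PCM1-negative-enriched genes, so its share of them is not independent of that choice. This share was 0.956%, the highest of the exercise experiment, where the others had 0.536% to 0.944%. Over its 8 samples the share and Slc2a1, both on the log2 scale, had r = -0.561 and rho = -0.310 (exact permutation p = 0.140 and 0.462, two-sided, adjusted p = 0.750 and 0.793), and r was -0.294 without the 2 samples farthest from the median share. The part of the share in the low value was not tested.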

How the results depend on the processing

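Apart from samples left out in turn, 84 values were recomputed for the 3 genes under other settings, and 82 of them kept their direction and their side of the threshold. Without a filter on low counts, Slc2a4 in sham versus control was -0.78 and no longer passed (edgeR adjusted p = 0.0555), and Hk2 in banded versus sham turned to -0.027; the cause was not tested. With samples left out in turn, the log2 difference of sham to control lay between -1.14 (without sham replicates 2 and 3; -0.95 among single libraries) and -0.79 for Slc2a4 (edgeR adjusted p 0.00568 to 0.111), between -0.18 and 0.14 for Slc2a1 (turning to -0.12 without sham replicates 2 and 3 and to -0.18 without control replicate 1) and between -0.45 and -0.20 for Hk2. For banded versus sham the ranges were 0.068 to 0.41 for Slc2a4, 0.25 to 0.52 for Slc2a1 and -0.091 to 0.23 for Hk2 (-0.091 without sham replicate 1, -0.043 and -0.033 without banded replicate 3 or 4). For trained versus control they were -0.29 to -0.14 for Slc2a4, -0.13 to 0.20 for Slc2a1 (-0.13 without control replicate 1) and -0.19 to 0.0065 for Hk2 (0.0065 without control replicate 3). The banding effect minus the training effect lay at 0.27 to 0.61, 0.17 to 0.49 and 0.013 to 0.33.

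Over all genes, sham versus control gave 119 calls in edgeR, 483 in DESeq2, 192 with the sham pair kept apart, and 30 (without sham replicate 4) to 613 (without sham replicates 2 and 3) with samples left out. Banded versus sham gave 1 call, 2 in DESeq2. Trained versus control gave 0, and 37 in DESeq2. The difference of effects gave 1, 4 in DESeq2, and 0 with 1 subtracted. With samples left out, each of these 3 comparisons gave 0 to 1 calls. Same-numbered samples did not deviate together throughout: the correlations of their deviations were 0.764, 0.506, 0.155 and 0.086 in surgery and -0.038, 0.035, 0.128 and 0.075 in exercise pairs. A replicate block was also fitted, with sham replicates 2 and 3 separate. For sham versus control it tied same-numbered libraries of all 4 groups, across both experiments, a pairing that the labels do not give. In that fit Slc2a4 in sham versus control was -0.84 (edgeR adjusted p = 0.00870), and the block changed no call of the 3 genes. Calls over all genes were then 425 for sham versus control, 1 for banding, 0 for training and 0 for the difference of effects. Depth was lowest for Slc2a1, with 84 to 762 counts per library.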
